A study of Homo sapiens with 24 samples.

Results

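To describe how RNA was divided between the soluble and the insoluble cytoplasm when DDX3 inhibition was combined with arsenite stress, the 6 libraries of the co-treated cells (Combo) were compared, 3 insoluble against 3 soluble, out of 24 libraries in the series. The libraries were taken by the group their labels give. All cells were U2OS, a human osteosarcoma cell line. The Combo cells were pre-treated for 1 h with 6 µM RK-33, an inhibitor of the ATPase activity of the RNA helicase DDX3. Sodium arsenite (NaAsO2), which causes oxidative stress, was then added at 500 µM for 60 min. The 3 other treatments had 6 libraries each and were NaAsO2 alone at the same dose, RK-33 alone at the same dose and a control (Ctrl) with 0.12% DMSO for 2 h. The study set the DMSO time to match that of RK-33. Cells were lysed with NP-40, nuclei were spun out at low speed, and a faster spin then parted the cytoplasm into supernatant (soluble) and pellet (insoluble). The pellet was enriched for ribonucleoprotein granules by its sedimentation alone, so other heavy material sediments with it, and 1 cell line was studied. The experiment was done 3 times, and RNA was sequenced after rRNA depletion.

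Stress granules form when translation initiation is blocked and messenger RNAs released from polysomes collect with RNA-binding proteins such as G3BP1, and P-bodies gather deadenylated messenger RNAs with decapping factors. DDX3 and its relatives of the DEAD-box family use ATP to unwind RNA duplexes and to remodel RNA-protein complexes, and DDX3 itself is found in stress granules. Long and poorly translated messenger RNAs are known to be richer in granules than short and well translated ones. An RNA's fraction effect is used here for the log2 ratio of its level in the insoluble over the soluble fraction, so that a negative value means that the RNA was relatively more abundant in the soluble fraction. Levels are exon-assigned reads scaled by library size and TMM factor to counts per 1000000 (CPM), and because both fractions are scaled to their own totals they give shares of each fraction and not molecules per cell.

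The 6 Combo libraries held 10348696 to 15376554 exon-assigned reads. Markers of the labelled cell type were present: COL1A1, SPARC, FN1 and VIM were abundant, and the list of mesenchymal and osteosarcoma markers summed to 5847 to 6549 CPM in the soluble and 5374 to 7255 in the insoluble libraries, although COL1A2 and TWIST1 stayed under 1. The summed level of other cell types' markers lay between 17.1 and 21.9 CPM for epithelial, 1.57 and 3.64 for blood, and 14.8 and 17.1 for liver and neural genes over the 6 libraries, with CD3E and TTR at 0. One library stood apart. Insoluble replicate 3 correlated at 0.978 and 0.975 with insoluble replicates 1 and 2, which correlated at 0.991 with each other (Pearson's r of log2 CPM across genes). Its deviation from those replicates followed the GC content of the transcript: the median deviation ran from -0.33 in the lowest GC quintile to 0.48 in the highest (log2). The share of intron-assigned reads was 29.9%, 30.2% and 22.3% in insoluble replicates 1 to 3 and 18.1%, 19.5% and 28.4% in soluble replicates 1 to 3, so that both libraries of number 3 lay apart from their groups. Where leaving out lysate 3 ended or turned a call of a gene described here, its value without lysate 3 is given, and the part of GC content in any result was not tested.

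**Figure D1:**
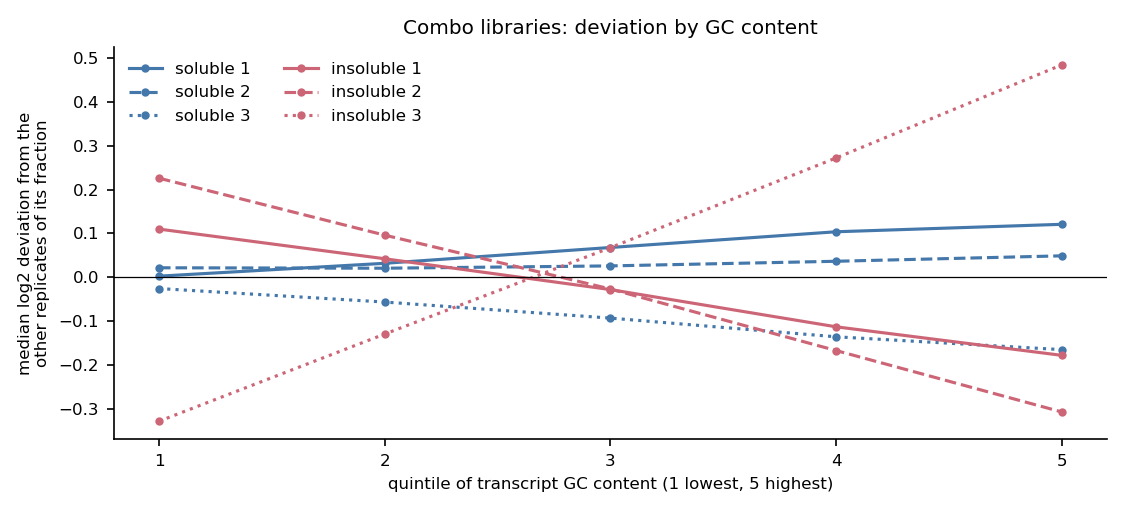
Median log2 deviation of each Combo library from the mean of the other replicates of its fraction (y axis), by quintile of transcript GC content (x axis), over genes averaging 10 CPM or more; blue lines are soluble and red lines insoluble libraries. Insoluble replicate 3 runs from -0.33 to 0.48, a wider range than any of the other 5 libraries.

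Of 17666 genes tested in the Combo lysates, 1797 (10.2%) were more abundant and 2255 (12.8%) less abundant in the insoluble than in the soluble fraction (edgeR quasi-likelihood test with the lysate as a block, fold limit of 1 on the log2 scale in either direction, Benjamini-Hochberg adjusted p below 0.05), 22.9% in all. Of the higher genes 1721 (95.8%) and of the lower genes 2250 (99.8%) had no overlap between the 3 insoluble and the 3 soluble libraries. The test had selected these genes on the same libraries, so their separation is a description and no further support. Without lysate 3 the counts were 2043 and 2320, and 3479 genes were called in the same direction by both fits, 85.9% of the first set and 79.7% of the second. No called gene changed sign.

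AHNAK and AHNAK2 encode giant scaffold proteins at the plasma membrane and cytoskeleton and had the 2 highest ratios of the named genes. AHNAK (chr11:62433542-62556235, GRCh38) had 1329.8, 1658 and 1338 CPM in the soluble and 19019.9, 20738 and 27229.7 CPM in the insoluble libraries (log2 fold change 3.94, SE 0.21, adjusted p = 3.15e-08). All 3 insoluble libraries lay more than 10 times above every soluble library, and per kilobase of exon AHNAK was behind only the noncoding RN7SL1 and RMRP in the insoluble fraction, at 1147 CPM per kb against 74.1 in the soluble. AHNAK2 (chr14:104937244-104978374) had 131, 163 and 126 CPM in the soluble and 1997, 2181 and 2538 CPM in the insoluble libraries (log2 fold change 4.0, SE 0.19, adjusted p = 2.27e-08). HERC2, a giant ubiquitin ligase of the DNA damage response, had 105, 106 and 78.7 CPM in the soluble and 612, 689.7 and 857 CPM in the insoluble libraries (log2 fold change 2.89, SE 0.18, adjusted p = 4.93e-08), and replicate 3 was the highest of the insoluble and the lowest of the soluble libraries. MDN1, the giant ATPase that matures the large ribosomal subunit, had 87.2, 92.3 and 80.4 CPM in the soluble and 518, 547 and 601 CPM in the insoluble libraries (log2 fold change 2.68, SE 0.15, adjusted p = 4.10e-08). RNF213, a giant ubiquitin ligase, had 141, 165 and 137 CPM in the soluble and 790.0, 890.1 and 991 CPM in the insoluble libraries (log2 fold change 2.59, SE 0.13, adjusted p = 2.27e-08). The fractions did not overlap for any of these 5 genes. The microtubule-associated protein MAP1A had a log2 fold change of 2.57 (SE 0.13) and MACF1, which links microtubules to actin, of 2.53 (SE 0.14). NBPF20 (2.84, SE 0.16) belongs to a multicopy family in which reads cannot be placed with certainty.

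In the list of 50 giant cytoskeletal, motor and scaffold proteins, 46 were higher in the insoluble fraction and none was lower, with a median log2 fold change of 1.93, beside 0.01 over all genes tested and 10.2% of them higher. The median was 1.80, 1.81 and 2.14 in lysates 1 to 3, and 43 members were called without lysate 3. Of 40 chromatin regulators with long messenger RNAs, 27 were higher and none lower (median 1.28). NSD1, a histone H3 lysine 36 methyltransferase, had 129, 145 and 129 CPM in the soluble and 717, 773 and 790.3 CPM in the insoluble libraries (log2 fold change 2.50, SE 0.13, adjusted p = 2.27e-08). The values of its fractions were more than 4 times apart. MED13L, a subunit of the Mediator kinase module, had a log2 fold change of 1.87 (SE 0.13) and the chromatin remodeller CHD7 of 1.79 (SE 0.12). Both lists were assembled from proteins known to be large, so their long messenger RNAs were a property of the choice.

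**Figure D2:**
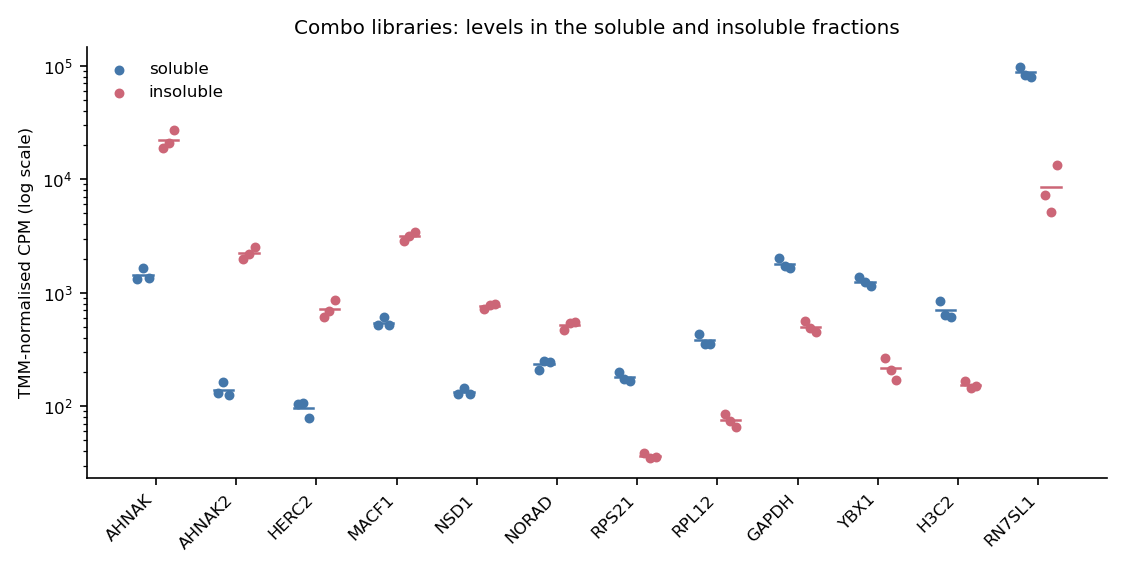
TMM-normalised CPM on a log axis (y) in the 3 soluble (blue) and 3 insoluble (red) Combo libraries for 12 genes (x); horizontal bars are means of 3 libraries. The fractions do not overlap for any of these genes: AHNAK to NORAD are higher and RPS21 to RN7SL1 lower in the insoluble libraries.

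Messenger RNAs of cytosolic ribosomal proteins carry at their 5′ end a terminal oligopyrimidine (TOP) motif, a C followed by a run of pyrimidines, through which their translation is regulated with growth and stress. The start sites of 3 ribosomal protein genes among the lowest ratios are given here, with that of EEF1A1, another TOP messenger RNA, and of AHNAK and MDN1, which have none. Each line gives 10 bases before and 20 bases from the RefSeq start (GRCh38.p14), with the motif in capitals.
RPS21 (chr20:62387093-62387122, plus strand): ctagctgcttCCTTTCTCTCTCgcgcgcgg
RPS13 (chr11:17077648-17077677, minus strand): ctctcgctctCCTTTCgttgcctgatcgcc
RPL12 (chr9:127451387-127451416, minus strand): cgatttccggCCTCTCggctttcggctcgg
EEF1A1 (chr6:73521013-73521042, minus strand): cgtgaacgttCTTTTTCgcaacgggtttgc
AHNAK (chr11:62545807-62545836, minus strand): cccccgccccagagcctggcccggcgccag
MDN1 (chr6:89819775-89819804, minus strand): gtcccgagctgatgacgtcaaacgccgtgt
A C and at least 4 following pyrimidines stood at a RefSeq start of 47 of 63 ribosomal protein genes and of 844 of 11789 tested genes with a start on record. Starts were on record for fewer than 80% of the 79 and 17666 genes, so a comparison of the shares is void and the motif is shown as a description.

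All 79 cytosolic ribosomal protein messenger RNAs had a negative fraction effect, and 74 of them were called lower in the insoluble fraction, against 12.8% of all genes. Their median was -1.65 and their range -2.51 to -0.31, with medians of -1.66, -1.69 and -1.52 in lysates 1 to 3. RPS21 (chr20:62387103-62388520), a protein of the small subunit, had 199, 174 and 166 CPM in the soluble and 38.4, 34.9 and 36.0 CPM in the insoluble libraries (log2 fold change -2.30, SE 0.12, adjusted p = 3.15e-08). RPL12 (chr9:127447674-127451406), of the large subunit stalk base, had 431, 355 and 352 CPM in the soluble and 85.7, 74.2 and 66.2 CPM in the insoluble libraries (log2 fold change -2.33, SE 0.13, adjusted p = 4.13e-08). RPS13 had 289, 245 and 239 CPM in the soluble and 57.7, 52.8 and 46.3 CPM in the insoluble libraries (log2 fold change -2.30, SE 0.13, adjusted p = 4.13e-08). The soluble libraries of these 3 genes lay over 4 times above the insoluble ones in every lysate. RPL39, one of the smallest ribosomal proteins, had the lowest ratio of the list (-2.51, SE 0.20). Many ribosomal protein genes have processed pseudogenes, and reads shared with them may be lost from the counts.

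Translation factors were spread more widely than ribosomal proteins. Of 37 tested, 11 (29.7%) were lower and 1 (2.7%), EIF4G1, was higher in the insoluble fraction (median -0.71), against 12.8% and 10.2% of all genes. EIF3I, a small subunit of the eIF3 complex, had 202, 189 and 177 CPM in the soluble and 48.3, 38.5 and 43.8 CPM in the insoluble libraries (log2 fold change -2.12, SE 0.13, adjusted p = 4.53e-08). EIF4G1, the large scaffold of the cap-binding complex, had 564, 568 and 451 CPM in the soluble and 993, 1041 and 1361 CPM in the insoluble libraries (log2 fold change 1.09, SE 0.16, adjusted p = 4.18e-05). Its lysates gave 0.82, 0.87 and 1.59, and it passed the fold limit through lysate 3, whose removal left 0.84. EEF1A1, the elongation factor that delivers aminoacyl-tRNA, had 6232, 5649 and 5273 CPM in the soluble and 3113, 2684 and 3581 CPM in the insoluble libraries and did not reach the fold limit (log2 fold change -0.88, SE 0.16, adjusted p = 4.06e-04), but did without lysate 3 (-1.04). EEF2, the translocation factor, was at -0.71 (SE 0.15).

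Other messenger RNAs of small and abundant proteins were also lower in the insoluble fraction. Of 74 nuclear-encoded respiratory chain and ATP synthase genes 57 were lower (median -1.51), of 75 mitochondrial ribosomal proteins 55 (-1.24), of 37 replication-dependent histones 33 (-1.56), of 26 tubulins, actins and their small partners 19 (-1.12) and of 31 proteasome subunits 14 (-0.96). No member of these 5 lists was higher, and over all genes 12.8% were lower and 10.2% higher. COX8A, a small subunit of cytochrome c oxidase, had 81.8, 71.8 and 67.1 CPM in the soluble and 17.1, 13.8 and 12 CPM in the insoluble libraries (log2 fold change -2.37, SE 0.14, adjusted p = 4.13e-08). SNRPD2, a core Sm protein of spliceosomal particles, had a log2 fold change of -2.29 (SE 0.13) and SH3BGRL3 of -2.68 (SE 0.16). The histone H3C2, whose messenger RNA ends in a stem-loop and not in a poly(A) tail, had 853, 636 and 613 CPM in the soluble and 167, 144 and 149.6 CPM in the insoluble libraries (log2 fold change -2.18, SE 0.17, adjusted p = 2.31e-07). ACTB, cytoplasmic actin, had 8259, 7363 and 6858 CPM in the soluble and 2309, 2123 and 2720.0 CPM in the insoluble libraries (log2 fold change -1.66, SE 0.16, adjusted p = 1.56e-06). GAPDH, of glycolysis, had 2014, 1717 and 1657 CPM in the soluble and 567, 486 and 446 CPM in the insoluble libraries (log2 fold change -1.85, SE 0.14, adjusted p = 1.66e-07). In each of these 4 genes the fractions did not overlap. Histone genes are near-identical copies of each other, and GAPDH has many pseudogenes, so single members are uncertain.

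Among 24 antioxidant enzymes, which arsenite stress calls on, 10 (41.7%) were lower and 1 (4.17%) higher (median -0.92), against 12.8% and 10.2% of all genes. Thioredoxin and the reductase that recharges it went opposite ways: TXN had 71.6, 75.4 and 62.6 CPM in the soluble and 15.2, 16.9 and 13.2 CPM in the insoluble libraries (log2 fold change -2.22, SE 0.17, adjusted p = 2.38e-07), and TXNRD1 had 238, 245 and 229.6 CPM in the soluble and 519, 532 and 584 CPM in the insoluble libraries (log2 fold change 1.2, SE 0.11, adjusted p = 1.11e-06). The canonical transcripts are 737 and 3860 bases long. Of 36 genes of ER translocation and folding, 14 (38.9%, against 12.8% of all genes) were lower and none higher. SEC61G (-2.33, SE 0.16) and SEC61B (-1.98, SE 0.15) of the translocon were among the lower ones. HSPA5, the main ER chaperone, was at 0.21 (SE 0.16), or -0.0043 without lysate 3, and did not pass.

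The fraction effect followed the coding length of the messenger RNA (canonical GENCODE 44 transcripts). Across 13442 tested genes with a coding sequence on record Pearson's r between the Combo fraction effect and log2 coding length was 0.63, with 3′ UTR length 0.31 and with 5′ UTR length 0.29, all points coming from the same 6 libraries. The median ran from -1.13 for 1051 genes with under 0.5 kb of coding sequence, of which 55.9% were lower, through -0.07 at 1 to 2 kb, to 1.44 for 194 genes over 8 kb, of which 72.2% were higher in the insoluble fraction. The lysates gave medians of -1.07, -1.07 and -1.05 in the first and 1.39, 1.36 and 1.41 in the last class. By merged exon length, which counts every annotated exon, the medians were -0.06 for 1246 genes under 1 kb, -0.47 at 1 to 2 kb and 0.61 over 16 kb. GC content had an r of -0.01 across 17405 genes, but the lysates had opposite signs, at -0.10, -0.15 and 0.26 in lysates 1 to 3 across the genes with a coding sequence.

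The fraction effect correlated with coding length in all treatments, with r of 0.71 in Ctrl, 0.58 in NaAsO2 and 0.65 in RK-33. By lysate this r was 0.61, 0.61 and 0.59 in Combo and 0.69, 0.70 and 0.73 in Ctrl. The Combo values thus lay below the Ctrl values. For 3′ UTR length they lay above: r was 0.32, 0.34 and 0.23 in Combo lysates 1 to 3 and 0.09, 0.10 and 0.15 in Ctrl lysates 1 to 3. Among genes with 1 to 2 kb of coding sequence, the median fraction effect in Combo was -0.39 for 1139 genes with a 3′ UTR under 0.5 kb and 0.13 for 1971 genes with one over 2 kb. The gap between these medians was 0.57, 0.60 and 0.36 in Combo lysates 1 to 3, -0.02, 0.02 and 0.10 in Ctrl, 0.59, 0.59 and 0.09 in NaAsO2 and 0.39, 0.37 and 0.66 in RK-33. The Combo gaps lay above the 3 Ctrl gaps and overlapped those of NaAsO2 and of RK-33. The lowest NaAsO2 gap belonged to lysate 3, whose insoluble library had a GC-dependent deviation in the direction of that of Combo insoluble replicate 3 (r = 0.82 between the 2 deviations across genes). It was larger, with an SD over genes of 0.88 against 0.41 (log2). These classes were chosen after the values were seen, and the difference between treatments was not tested.

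**Figure D3:**
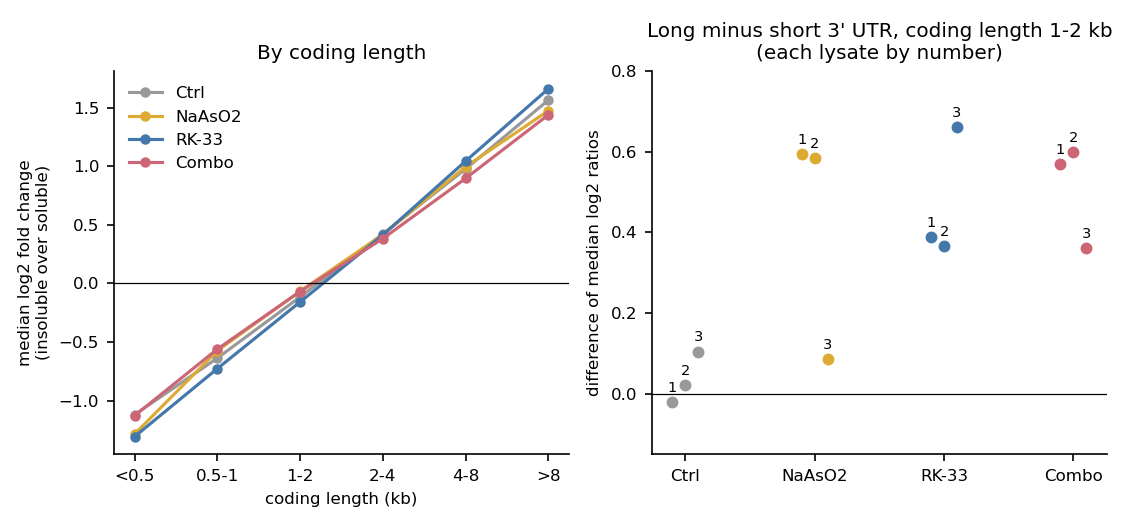
Left, median log2 fold change of the insoluble over the soluble fraction (y) in classes of coding length in kb (x) for the 4 treatments. Right, for genes with 1 to 2 kb of coding sequence, the median log2 ratio of genes with a 3′ UTR over 2 kb minus that of genes with one under 0.5 kb (y), 1 point for each numbered lysate (x, treatment): the Combo lysates lie at 0.57, 0.60 and 0.36 and the Ctrl lysates at -0.02, 0.02 and 0.10.

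Few messenger RNAs of stress granule proteins were called. Of 30 stress granule proteins 2 (6.67%) were higher, PUM2 and EIF4G1, and 1 (3.33%), YBX1, was lower (median -0.10). Over all genes the shares were 10.2% and 12.8%. EIF4G1 was not called without lysate 3 (0.84). YBX1, a cold-shock domain protein that packages messenger RNA, had 1366, 1235 and 1147 CPM in the soluble and 267, 208 and 169.6 CPM in the insoluble libraries (log2 fold change -2.56, SE 0.16, adjusted p = 6.09e-08). PUM2, a repressor that binds UGUA motifs in 3′ UTRs, had 151, 152 and 135 CPM in the soluble and 432, 446 and 293 CPM in the insoluble libraries (log2 fold change 1.40, SE 0.20, adjusted p = 5.25e-05). DDX3X, the target of RK-33, had 407, 425 and 399 CPM in the soluble and 448, 472 and 354 CPM in the insoluble libraries (log2 fold change 0.04, SE 0.20, adjusted p = 0.89), with overlapping fractions and a sign that turned under 7 of the alternatives. G3BP1, the nucleator of stress granules, had 392, 409 and 371 CPM in the soluble and 461, 474 and 522 CPM in the insoluble libraries (log2 fold change 0.31, SE 0.13, adjusted p = 0.0573). RK-33 acts on the protein, so the DDX3X level does not check the labels.

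Of 30 P-body and decay proteins 6 (20%) were higher and 3 (10.0%) lower, against 10.2% and 12.8% of all genes (median 0.21), so the share of lower members was no larger than the background. The higher ones were the GW182 scaffolds of microRNA silencing TNRC6A (1.01, SE 0.22), TNRC6B (1.29, SE 0.14) and TNRC6C (1.73, SE 0.12), AGO2 (1.10, SE 0.14), the decapping enzyme DCP2 (1.21, SE 0.16) and CNOT1, the scaffold of the deadenylase complex (1.56, SE 0.19). The lower ones were CNOT7, a catalytic deadenylase (-1.25, SE 0.17), CNOT3 (-1.04, SE 0.14) and LSM1 of the decapping activator ring (-1.21, SE 0.20). TNRC6A, AGO2, DCP2 and LSM1 were named because the count was small, after their values were seen. DCP1A had 66.0, 79.9 and 76.5 CPM in the soluble and 115, 115 and 84.1 CPM in the insoluble libraries (log2 fold change 0.49, SE 0.17, adjusted p = 0.0299). Of 44 DEAD and DEAH box helicases 1 was higher and none was lower, against 10.2% and 12.8% of all genes. The higher one was DHX8, a splicing helicase (1.01, SE 0.14), and it was not called without lysate 3 (0.78).

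**Figure D4:**
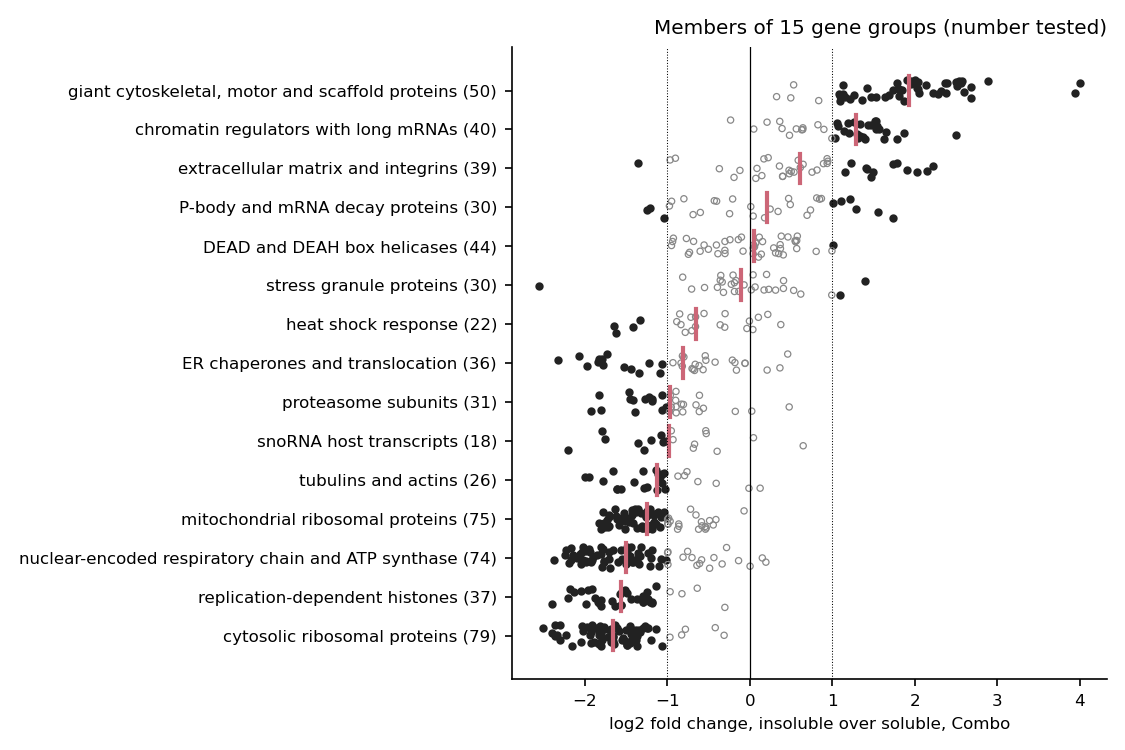
Log2 fold change of the insoluble over the soluble fraction in Combo (x) for the tested members of 15 gene lists (y, number tested); filled points passed both thresholds, open points did not, red bars are medians and dotted lines mark the fold limit. Giant proteins have a median of 1.93 and cytosolic ribosomal proteins of -1.65, and stress granule proteins lie around 0.

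Heat shock genes are induced by arsenite through HSF1. Of 22 tested 4 (18.2%, against 12.8% of all genes) were lower in the insoluble fraction and none higher (median -0.66), and the lower ones were the small chaperones CRYAB (-1.65, SE 0.14), HSPB1 (-1.62, SE 0.19) and HSPE1 (-1.42, SE 0.14), with HSPA1L (-1.33, SE 0.18), which was named after its value was seen. HSPA1A, the inducible HSP70, had 1123, 1167 and 1271 CPM in the soluble and 624, 557 and 940.0 CPM in the insoluble libraries (log2 fold change -0.78, SE 0.16, adjusted p = 0.00101). Its near-identical neighbour HSPA1B, with which it shares reads, had -0.85 (SE 0.18) and passed the fold limit without lysate 3 (-1.03). HSPA6 had 203, 210.1 and 246 CPM in the soluble and 139, 99.2 and 192 CPM in the insoluble libraries (log2 fold change -0.66, SE 0.16, adjusted p = 0.00346), and DNAJB1, an HSP40 co-chaperone, 904, 902 and 1035 CPM in the soluble and 539, 533 and 747 CPM in the insoluble libraries (log2 fold change -0.66, SE 0.13, adjusted p = 6.17e-04). For all 4 the fractions did not overlap although the fold stayed under the limit. Of 29 immediate early and stress genes FOSL2 was higher (1.21, SE 0.13), and ZFP36, which promotes decay of AU-rich messenger RNAs, and EGR1 were lower. These shares of 3.45% higher and 6.9% lower stood against 10.2% and 12.8% of all genes. EGR1 had 1063, 1195 and 1228 CPM in the soluble and 479, 520.3 and 570.0 CPM in the insoluble libraries (log2 fold change -1.15, SE 0.14, adjusted p = 9.86e-06). ZFP36 had 114, 135 and 134 CPM in the soluble and 46.3, 51.0 and 43.2 CPM in the insoluble libraries (log2 fold change -1.45, SE 0.15, adjusted p = 1.89e-06). FOS lay at -0.14 (SE 0.11, adjusted p = 0.339) and ATF3, a stress-induced repressor, at -0.79 (SE 0.11).

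Extracellular matrix and integrin messenger RNAs, which are translated at the ER, had a wide spread of ratios. Of 39 tested 12 (30.8%) were higher in the insoluble fraction and 1 (2.56%) was lower, with a median of 0.61. Over all genes these shares were 10.2% and 12.8%. The lysate medians were 0.43, 0.51 and 1.10, and without lysate 3 10 were higher and 2 lower. FBN2, a microfibril protein, had 401, 479.6 and 301 CPM in the soluble and 1536, 1641 and 2337 CPM in the insoluble libraries (log2 fold change 2.22, SE 0.21, adjusted p = 1.11e-06). COL6A3 had a log2 fold change of 2.15 (SE 0.15), and TIMP1, a small inhibitor of metalloproteinases, had 911, 852 and 918 CPM in the soluble and 351, 340.1 and 356 CPM in the insoluble libraries (log2 fold change -1.36, SE 0.11, adjusted p = 4.17e-07). COL1A1 had 1298, 1288 and 1109.5 CPM in the soluble and 1047, 959 and 2555 CPM in the insoluble libraries (log2 fold change 0.15, SE 0.42, adjusted p = 0.799), and its direction rested on insoluble replicate 3: the lysates gave -0.31, -0.42 and 1.2. FN1, fibronectin, had 1575, 1715 and 1194 CPM in the soluble and 2118, 2130.5 and 2556 CPM in the insoluble libraries (log2 fold change 0.61, SE 0.18, adjusted p = 0.011). Of 36 mitotic genes 5 were higher, among them the large proteins CENPF (1.66, SE 0.19) and MKI67 (1.43, SE 0.18), and 2 were lower (median -0.06), shares of 13.9% and 5.56% against 10.2% and 12.8% of all genes.

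RN7SL1, the RNA of the signal recognition particle, was the most abundant RNA of the soluble fraction, taking 8.33 to 9.57% of its exon-assigned reads against 0.521 to 1.23% in the insoluble fraction. It had 98216, 82899 and 80258 CPM in the soluble and 7272, 5147 and 13449 CPM in the insoluble libraries (log2 fold change -3.45, SE 0.55, adjusted p = 1.15e-04). Insoluble replicate 3 held about 13449 CPM, above insoluble replicates 1 and 2 but under every soluble library. RN7SL3, a near-identical copy, had a log2 fold change of -3.28 (SE 0.54) and shares reads with it. RN7SK, the 7SK RNA, was below the level for testing. Of 18 snoRNA host transcripts 9 (50%, against 12.8% of all genes) were lower and none higher. The lowest was SNHG3, which had 201, 228 and 219.6 CPM in the soluble and 46.1, 47.6 and 46.3 CPM in the insoluble libraries (log2 fold change -2.21, SE 0.12, adjusted p = 4.10e-08).

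Long noncoding RNAs went in both directions. Of 2717 tested genes annotated as such 9.57% were higher and 14.5% lower, near the 10.2% and 12.8% of all genes. Of 10 nuclear-retained ones tested 2 (20%) were higher and 1 (10%) was lower. MALAT1 of nuclear speckles had 8460.1, 9814 and 11070 CPM in the soluble and 4047, 4525 and 4297 CPM in the insoluble libraries (log2 fold change -1.18, SE 0.17, adjusted p = 3.93e-05), lower in the insoluble fraction in every lysate, and 83.7% of its exon bases also lie in exons of another annotated gene. NEAT1, the scaffold of paraspeckles, had 551, 623 and 725 CPM in the soluble and 1504, 1559 and 1219 CPM in the insoluble libraries (log2 fold change 1.17, SE 0.18, adjusted p = 6.59e-05). KCNQ1OT1, an imprinted antisense transcript, had 31.9, 33.8 and 77.3 CPM in the soluble and 151, 148 and 114 CPM in the insoluble libraries (log2 fold change 1.65, SE 0.26, adjusted p = 9.36e-05), and its lysate ratios were 2.23, 2.11 and 0.56. The counting used no strand, so antisense transcripts and their partners cannot be told apart. These nuclear RNAs were counted in both fractions, and the soluble library of number 3 held more of NEAT1 and KCNQ1OT1 than the other soluble libraries.

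NORAD (chr20:36045618-36051018, minus strand) is a conserved cytoplasmic long noncoding RNA that binds Pumilio proteins through many copies of an 8-base element. It so holds them from their target messenger RNAs. Among the 6 cytoplasmic long noncoding RNAs tested, only NORAD (16.7%) was higher and 2 (33.3%) were lower. Over all genes these shares were 10.2% and 12.8%. NORAD had 209, 248 and 243 CPM in the soluble and 465, 540.3 and 554 CPM in the insoluble libraries (log2 fold change 1.16, SE 0.11, adjusted p = 1.55e-06), and the fractions did not overlap. The 5401-base transcript, a single exon, holds the element TGTANATA 15 times on its own strand, a number reached by 6 of 17405 tested canonical transcripts, and 28% of these hold at least 1. Overlapping matches were counted separately. Of these, 4 are shown with 10 bases on each side and the element in capitals, because they are what NORAD is known for and its fraction effect differed from both Ctrl and RK-33, as did those of ID1 and LRRC58.
NORAD site 2 (chr20:36049804-36049831, minus strand): ctcactactgTGTATATAgttgacaatg
NORAD site 3 (chr20:36049703-36049730, minus strand): aatcacatttTGTAAATAcctttttgtt
NORAD site 5 (chr20:36049493-36049520, minus strand): gtgtatatagTGTACATAaaggacagac
NORAD site 11 (chr20:36047972-36047999, minus strand): aaccctactgTGTATATAgcggacaaac
Over all genes the median fraction effect was -0.07 in transcripts with no element and 0.49 in 308 transcripts with over 3, but long transcripts hold more elements. In transcripts of 4 to 8 kb the medians were 0.35 and 0.42, with 120 transcripts in the second class. By lysate they were 0.28, 0.27 and 0.40 with no element and 0.50, 0.51 and 0.17 with over 3, so that the gap was positive in lysates 1 and 2 and negative in lysate 3.

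Whether the combination divided RNA otherwise than the other treatments was asked by testing the difference between fraction effects, with no library shared between the sides. Against Ctrl, 376 genes (2.13%) differed by at least 1 on the log2 scale, 187 with a higher and 189 with a lower ratio in Combo. NORAD had log2 ratios of 1.15, 1.12 and 1.19 in Combo lysates 1 to 3 and -0.41, -0.37 and -0.32 in Ctrl lysates, a difference of 1.53 (SE 0.16, adjusted p = 5.17e-04). In NaAsO2 alone its ratios were higher still, at 1.70, 1.70 and 2.11, and Combo minus NaAsO2 was -0.68 (SE 0.16, adjusted p = 0.166). ID1, an inhibitor of bHLH transcription factors and an early response gene, had 0.67, 0.78 and 0.82 in Combo and -1.2, -1.35 and -1.28 in Ctrl, a difference of 2.04 (SE 0.24, adjusted p = 6.48e-04). LRRC58 differed by 1.60 (SE 0.18, adjusted p = 5.17e-04), the zinc finger gene ZNF12 by 1.65 (SE 0.18, adjusted p = 5.17e-04) and POMK, a kinase of dystroglycan glycosylation, by 1.53 (SE 0.17, adjusted p = 5.17e-04). These 5 were relatively more insoluble in every Combo lysate than in any Ctrl lysate. They were chosen by this same contrast, so the separation is a description and no further support.

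In the other direction TKT, transketolase of the pentose phosphate pathway, had log2 ratios of -1.67, -1.82 and -1.5 in Combo and 0.17, -0.05 and 0.02 in Ctrl, a difference of -1.72 (SE 0.17, adjusted p = 5.17e-04). TARS1, the threonyl-tRNA synthetase, differed by -1.57 (SE 0.17, adjusted p = 5.17e-04), COPG1 of the COPI coat by -1.48 (SE 0.16, adjusted p = 5.17e-04) and DDX1, a DEAD-box helicase, by -1.53 (SE 0.17, adjusted p = 5.17e-04). Their ratios were above or near 0 in Ctrl and below 0 in Combo. The genes with a higher ratio in Combo had a median 3′ UTR of 3139.5 bases and those with a lower ratio of 415, beside 1366 over all genes tested, while the median coding lengths were 1254, 2196 and 1446 bases. These medians describe lists made from the contrast and were not tested. In NaAsO2 and in RK-33 the same genes had median fraction effects of 0.93 and 0.31 (higher list) and -0.65 and -0.24 (lower list), with Combo at 1.00 and -0.61 and Ctrl at -0.23 and 0.66. The count was 183, 204 and 234 without Ctrl lysate 1, 2 or 3. Without Combo lysate 1, 2 or 3 it was 213, 212 and 448. The split into higher and lower genes was then 130 to 83, 129 to 83 and 165 to 283, so its balance depended on the lysates used.

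Against RK-33 alone 9 genes (0.0509%) differed, all with a higher ratio in Combo, while 670 passed the same fold limit at an unadjusted p under 0.05. CCN1, a matricellular protein and early response gene, had log2 ratios of 1.03, 0.95 and 0.85 in Combo and -0.76, -0.48 and -0.87 in RK-33, a difference of 1.64 (SE 0.17, adjusted p = 0.00134). ID1 had 0.67, 0.78 and 0.82 in Combo and -1.2, -1.46 and -1.77 in RK-33, a difference of 2.24 (SE 0.24, adjusted p = 0.00134). NFKBIA, the inhibitor of NF-κB, differed by 1.38 (SE 0.17, adjusted p = 0.00591), IER3, another early response gene of which 38.9% of exon bases lie in another gene as well, by 1.77 (SE 0.23, adjusted p = 0.00594) and NORAD by 1.15 (SE 0.16, adjusted p = 0.0126). CCN1, ID1, NFKBIA and IER3 changed sign between the treatments, positive in every Combo lysate and negative in every RK-33 lysate. The contrast itself had selected these genes, so this separation is a description only. In NaAsO2 alone the 4 were positive as well, at 0.92, 0.53, 0.73 and 0.98, and their difference from Combo did not pass there. Without the replicate block 42 genes were called, 22 higher and 20 lower, and DESeq2 called 53, 26 higher and 27 lower. The count was 4, 4 and 2 without RK-33 lysate 1, 2 or 3 and 5, 4 and 7 without Combo lysate 1, 2 or 3.

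Against NaAsO2 alone, which lacked RK-33 and its pre-treatment, 8 genes (0.0453%) differed, 2 with a higher and 6 with a lower ratio in Combo, while 401 passed the fold limit at an unadjusted p under 0.05. Scaled by library size alone the split was 2 to 17. NaAsO2 insoluble replicate 3, which enters this contrast, deviated more from its fellow replicates than any other library of the series. The SD of its log2 deviation was 0.88, with 2764 of 10148 genes over 1. Combo insoluble replicate 3 had 0.41 and 97 genes. EGR1 had log2 ratios of -1.15, -1.2 and -1.11 in Combo and 0.66, 0.54 and -0.09 in NaAsO2, a difference of -1.52 (SE 0.20, adjusted p = 0.00952). The 3 members of the ZFP36 family, whose products bind AU-rich elements, each had a lower ratio in Combo: ZFP36 by -1.40 (SE 0.21, adjusted p = 0.0216), ZFP36L1 by -1.03 (SE 0.15, adjusted p = 0.0187) and ZFP36L2 by -1.25 (SE 0.21, adjusted p = 0.0487). Without Combo lysate 3 ZFP36L2 was at -1.18 (adjusted p = 0.0595) and not called. ZNF469, a long zinc finger gene, had 0.86, 0.24 and 1.37 in Combo and 2.93, 2.58 and 3.23 in NaAsO2, a difference of -2.19 (SE 0.30, adjusted p = 0.0118). CWC15, a spliceosome component, had -0.39, -0.08 and -0.40 in Combo and -1.83, -1.81 and -2.62 in NaAsO2, a difference of 1.81 (SE 0.23, adjusted p = 0.00952), and WDR61, of the PAF1 and superkiller complexes, differed by 1.24 (SE 0.16, adjusted p = 0.00952). For all 7 the lysates of the treatments did not overlap, which is a description only, since the contrast had selected these genes. The calls depended on the fit: 26 genes were called without the replicate block, 0 when only the lysates of the 2 treatments were fitted, 0 without Combo lysate 1 or lysate 2, 21 without Combo lysate 3, 1 and 3 without NaAsO2 lysate 1 or 2, and 20 without NaAsO2 lysate 3.

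**Figure D5:**
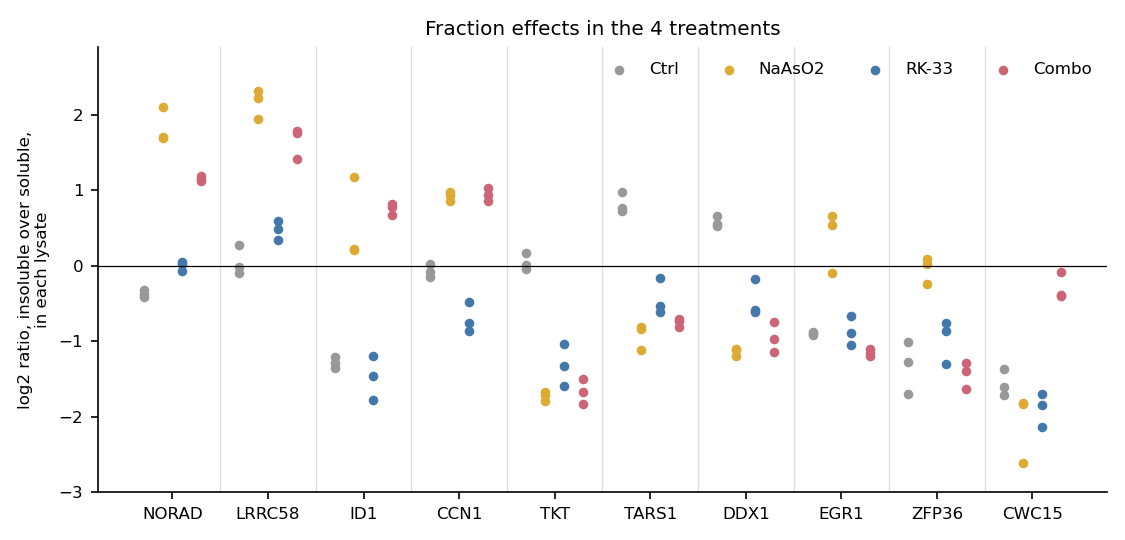
Log2 ratio of the insoluble over the soluble level (y) in each of 3 lysates per treatment, for 10 genes whose fraction effect in Combo differed from that of at least 1 other treatment (x). NORAD lies at 1.15, 1.12 and 1.19 in Combo and -0.41, -0.37 and -0.32 in Ctrl; EGR1 and ZFP36 separate Combo from NaAsO2.

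Across 17666 genes Pearson's r between the Combo fraction effect and that of NaAsO2 was 0.88, of RK-33 0.86 and of Ctrl 0.80, with no library in common. The SD of the fraction effect over genes was 0.86 in Combo, 1.01 in NaAsO2, 1.02 in RK-33 and 0.87 in Ctrl. The NaAsO2 value includes lysate 3, where r with GC content was 0.51, against 0.005 and 0.07 in NaAsO2 lysates 1 and 2. The difference in SD between treatments was not tested. Cytosolic ribosomal proteins had medians of -1.65 in Combo, -2.17 in NaAsO2, -1.74 in RK-33 and -1.27 in Ctrl, and 1 of the 79 differed by the test from Ctrl. Of the 22 heat shock genes 6 had a lower ratio in Combo than in Ctrl, as had 1.07% of all genes tested.

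Intron-assigned reads gave a second readout of the same libraries. Of 17406 genes tested, 673 (3.87%) had more and 1437 (8.26%) fewer intron reads in the insoluble fraction. Intron counts were scaled here by library size and TMM factor. Scaled by library size alone, the split was 233 to 2466 and the median of all genes moved from -0.03 to -0.30, so directions of introns are relative to the scaling. Without lysate 3 the test called 3362 genes, without lysate 1 1190 and without lysate 2 1042. SF3B4, a splicing factor, had 119, 138 and 85.0 intron CPM in the soluble and 17.7, 14.7 and 11.7 in the insoluble libraries (log2 fold change -2.94, SE 0.22, adjusted p = 3.47e-08), and its exons were lower as well (-1.86). STAM, an endosomal sorting protein, had 795, 866 and 597 intron CPM in the soluble and 172, 185 and 182 in the insoluble libraries (-2.05, SE 0.16), whereas its exons were at -0.15 (SE 0.16) and did not pass. In the other direction SKI, a repressor of TGF-β signalling, had 71.2, 66.7 and 70.2 intron CPM in the soluble and 262, 253 and 318 in the insoluble libraries (1.99, SE 0.18), with exons at 1.44. Of 1503 genes with lower exons that were tested in both readouts 423 had lower introns and 8 higher introns, and of 1302 with higher exons 124 had higher and 14 lower introns. The 49 giant protein genes with tested introns, of which nearly all had higher exons, had a median intron log2 fold change of 0.24.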

How the data were processed

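The deposited tables hold exon and intron read counts per gene, which the authors made with STAR 2.7.2b, SAMtools 1.2 and featureCounts 1.5.3 (Subread) on GRCh38.p13 with GENCODE 40, grouped by gene name and without strand; directional libraries counted so do not part antisense genes. Genes split over several lines were joined, 0 columns belonged to no sample, and the mitochondrially encoded genes were listed at 0. The circular and linear RNA tables were not used here. Counts were fitted in R 4.3.3 with edgeR 4.0.16 (TMM, quasi-likelihood test, two-sided) over all 24 libraries, keeping genes that averaged 1 CPM or more over them, with a term for each of 12 lysates and a fraction effect for each treatment, adjusted by Benjamini-Hochberg over all genes tested. Calls needed a log2 fold change of 1 or more in either direction at an adjusted p below 0.05. DESeq2 1.42.0 served as an alternative, and tables were made with Python 3.11.15. Alternatives were other scalings, filters and fold limits, DESeq2, glmLRT, no block, fewer lysates and each lysate or library left out, and the fit was tested on simulated data. Sequences came from RefSeq (GRCh38.p14) and lengths from GENCODE 44.

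The comparison, its members and the gene lists were chosen with earlier results of these data known. Named genes averaged 10 CPM or more in the Combo libraries and were the 8 with the smallest adjusted p in each direction with the same sign in 3 lysates, up to 3 per list and direction by fold change, 5 per direction for each difference between treatments, 4 per direction for introns and a fixed set of genes; some items are not reported here. Length classes, Pumilio elements and start motifs were chosen after values were seen. Fractions of the same number were treated as 1 lysate, as in the study's paired tests. The deviations of same-numbered Combo libraries from their group means correlated at -0.12, -0.10 and -0.285, so the data themselves show no pairing. The study describes 3 repeats of the experiment, the labels do not say what a repeat was, and p-values measure the spread between these libraries, which may be technical.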

Additional observations from a re-analysis of the deposited data

Results flagged for a closer look

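The fraction effect in Combo differed from that of another treatment by a test of the difference itself (edgeR quasi-likelihood test, Benjamini-Hochberg adjusted) in the following named genes, with the difference on the log2 scale as Combo minus the other treatment. Against NaAsO2 the RNAs of CWC15 (1.81) and WDR61 (1.24) were relatively more insoluble in Combo. Those of EGR1 (-1.52), ZNF469 (-2.19), ZFP36L1 (-1.03), ZFP36 (-1.40) and ZFP36L2 (-1.25) were relatively less so. Against RK-33 the RNAs of CCN1 (1.64), ID1 (2.24), NFKBIA (1.38), IER3 (1.77) and NORAD (1.15) were relatively more insoluble, and 38.9% of the exon bases of IER3 also lie in another annotated gene. Against Ctrl those of NORAD (1.53), ZNF12 (1.65), POMK (1.53), LRRC58 (1.60) and ID1 (2.04) were more insoluble. TKT (-1.72), TARS1 (-1.57), COPG1 (-1.48) and DDX1 (-1.53) were less insoluble than in Ctrl.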

How the results depend on the processing

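The count of genes differing between the Combo fractions was 4052 and moved by more than 1.5 times with a mean of at least 10 CPM (2415), no fold limit (8793) and a fold limit of 2 on the log2 scale (344), where the number of genes or the limit itself sets the count. Against NaAsO2 8 genes became 40 with DESeq2, 66 with glmLRT, 19 with library size alone, 15 at 10 CPM, 85 with no filter, 26 with no replicate block, 0 with only the compared lysates and 1 at a fold limit of 2, and 0 to 212 with a lysate or library left out. Against RK-33 9 genes became 53 with DESeq2, 112 with glmLRT, 122 with no filter, 42 with no replicate block, 14 with only the compared lysates and 1 at a fold limit of 2, and 2 to 52 with a lysate or library left out. Against Ctrl 376 genes became 1022 with no fold limit, 14 at a limit of 2 and 183 to 508 with a lysate or library left out. For introns 2110 became 1014 at 10 CPM, 4747 with no fold limit, 384 at a limit of 2 and 1042 to 3362 with a lysate or library left out. The cause was not tested. Without the replicate block 4086 genes differed between the Combo fractions, 3976 of them shared. DDX3X turned to -0.042 with exon plus intron counts, -0.0063 with library size alone, -0.033 with no filter, -0.06 and -0.02 without lysate 1 or 2, and -0.027 and -0.063 without the block and insoluble replicate 1 or 2, and reached 0.14 without lysate 3. Without lysate 3 COL1A1 was at -0.37 and HSPA5 at -0.0043, and without the block and insoluble replicate 3 they were at -0.35 and -0.049; their highest values with a library left out were 0.51 and 0.34. Of 2425 values of single genes under the alternatives, 2325 kept direction and side of the threshold, 84 lost the call, 5 gained it and 11 turned. Depth limits genes near 1 CPM.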

Other observations

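Of 17 glycolytic genes 6 (35.3%) were lower in the insoluble fraction and 1 (5.88%) was higher, against 12.8% and 10.2% of all genes. The lower ones included GAPDH and the lactate dehydrogenase subunits LDHB (-1.47, SE 0.30) and LDHA (-1.2, SE 0.14). The higher one was the hexokinase HK2 (1.05, SE 0.17), whose lysates gave 0.82, 0.70 and 1.62. Without lysate 3 HK2 was at 0.76 and not called, and the list had 0 higher and 7 lower. Of 21 SR splicing factors and CLK kinases, SON, a large scaffold of nuclear speckles, was higher and SRSF6 lower, a smaller share in each direction (4.76%) than the 10.2% and 12.8% of all genes, and 17 had negative values. SON had 447, 464 and 472 CPM in the soluble and 1216, 1309.8 and 1372 CPM in the insoluble libraries (log2 fold change 1.49, SE 0.14, adjusted p = 1.09e-06). SRSF6 had 221, 240.4 and 236 CPM in the soluble and 115, 122 and 105 CPM in the insoluble libraries (log2 fold change -1.03, SE 0.14, adjusted p = 3.23e-05). The fractions did not overlap for either gene, and SRSF6 was at -0.97 and not called without lysate 3.

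Per kilobase of exon the most abundant RNAs of both fractions were RN7SL1 and RMRP, the RNA of RNase MRP. RMRP stood at 21035 CPM per kb in the soluble fraction and 12922 in the pellet, so it was less uneven than RN7SL1, at 291386 and 28838. DANCR, a short cytoplasmic long noncoding RNA that hosts a snoRNA, had 82.2, 75.5 and 86.3 CPM in the soluble and 37.7, 34.3 and 24.3 CPM in the insoluble libraries (log2 fold change -1.36, SE 0.19, adjusted p = 4.25e-05), opposite in direction to NORAD.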
